A study of Bos taurus with 35 samples.

Results

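FABP4, PCK1, LIPE, LPL and GPAM encode proteins that move fatty acids into cells, store them as triacylglycerol and release them again. The table of read counts covers 27607 genes, of which 14630 were tested, and these 5 genes were identified in it by their Ensembl gene IDs. They were chosen by their measured values in these same samples, since each was called downregulated against 0 h at 1 or more of the time points 24, 48 and 72 h *post-mortem*. Their differences from 0 h at those time points are therefore given as a description and without p-values. All 5 genes passed the filter on low expression.

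The samples were cores of *longissimus thoracis*, the long muscle of the back, from 7 British × Continental crossbred heifers that weighed 525 to 635 kg at slaughter. Each left carcass side was kept in the drip cooler and cored at 0 h (45 min after death), 6, 24, 48 and 72 h, so that every animal gave 1 sample per time point (35 samples in all). No treatment was applied, each core was a separate piece of tissue, and the refrigerated carcass is the only condition studied. Total counts ranged from 20568418 to 104275821 per sample. The muscle genes CKM, TNNT1 and TNNT3 together had 23810 to 29000 CPM (a gene's reads scaled to a common library size) at 0 h.

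In mammals, lipoprotein lipase (LPL) releases fatty acids from circulating lipoproteins at the capillary wall. It is made by muscle fibres, adipocytes and macrophages alike. Fatty acid binding protein 4 (FABP4) carries fatty acids in adipocytes, and is also found in capillary endothelium and macrophages, while FABP3 does this work in muscle. The mitochondrial acyltransferase GPAM starts glycerolipid synthesis from glycerol 3-phosphate. The cytosolic enzyme phosphoenolpyruvate carboxykinase (PCK1) supplies that glycerol 3-phosphate in adipocytes through glyceroneogenesis. Hormone-sensitive lipase (LIPE) cleaves diacylglycerol during lipolysis and is most abundant in adipocytes, with a lower level in muscle. In meat animals the adipocytes between muscle fibres form the marbling fat, and a muscle core can hold a varying number of them.

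The 5 genes fell along different courses. None of the 5 was called at 6 h against 0 h. FABP4 and PCK1 lay far below their 0 h level at 24 h. LIPE dropped at the same time, but kept a larger share of its 0 h level. LPL and GPAM were not called lower until 48 h, and LPL by the smallest fold change of the 5. At 0 and 6 h, before these declines, FABP4, PCK1 and LIPE also differed between animals together with the adipocyte markers, whereas GPAM passed no such test and LPL passed it only at 6 h.

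Against 0 h, 0.95%, 6.3% and 15.4% of the 14630 genes were called lower at 24, 48 and 72 h, where a call needed a False Discovery Rate (FDR) under 0.05 and a difference of more than 1.5-fold. FABP4, PCK1 and LIPE were called lower at 24 h, and all 5 genes were called lower at 48 and 72 h. These are the comparisons by which the genes were chosen, so nothing is read from these counts. The median log2 fold change of the 5 genes was -1.32, -1.28 and -1.39 at 24, 48 and 72 h, beside -0.0040, -0.0048 and 0.014 over all genes tested. The nearest value inside the fold change threshold was that of LPL at 48 h, a fold change of 1.502. LPL at 24 h, 1.31-fold lower with a log2 fold change of -0.39, lay outside. In bulk tissue, fewer cells of a type and less RNA per cell cannot be told apart.

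FABP4 (ENSBTAG00000037526) had the widest range of the 5 genes on the log2 scale. Its lowest, median and highest levels over the 7 animals were 7.38, 42.6 and 63.6 CPM at 0 h, and 5.97, 31.8 and 130.5 CPM at 6 h. They were 1.46, 4.48 and 10.2 CPM at 24 h, 2.57, 3.22 and 14.4 CPM at 48 h, and 1.93, 2.29 and 3.51 CPM at 72 h. Every animal was lower at 24, 48 and 72 h than at its own 0 h, and at 72 h even the highest animal lay below the lowest animal of 0 h. The groups overlapped at 24 and 48 h, because animal 103 began with only 7.38 CPM and animal 101 still had 10.2 and 14.4 CPM. In the model, FABP4 had log2 fold changes of -3.04, -2.85 and -3.64 at 24, 48 and 72 h (standard errors 0.48, 0.48 and 0.50).

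PCK1 (ENSBTAG00000001936) had few counts, from 16 to 779 per sample. Its lowest, median and highest levels were 1.41, 7.90 and 13.3 CPM at 0 h, and 1.57, 5.55 and 13.4 CPM at 6 h. At 24 h they were 0.399, 0.839 and 1.19 CPM, so that no animal of 24 h reached the lowest animal of 0 h or 6 h. At 48 h the levels were 0.798, 1.001 and 2.07 CPM and at 72 h 1.19, 1.59 and 2.25 CPM. Both of these ranges overlapped that of 0 h. Its log2 fold changes against 0 h were -3.10, -2.49 and -1.94 at 24, 48 and 72 h (standard errors 0.34, 0.33 and 0.31). Animal 103, the lowest at 0 h, was back at 108.3% of that level at 72 h, and the other 6 animals stood below their own 0 h throughout these time points. PCK1 was higher at 72 h than at 24 h in 7 of 7 animals, by 0.98 ± 0.53 on the log2 scale (SD, n = 7), and the lowest animal of 72 h (1.191 CPM) lay just above the highest of 24 h (1.187 CPM). This comparison was picked after the values were seen and was not tested.

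LIPE (ENSBTAG00000038321) had lowest, median and highest levels of 9.40, 20.1 and 33.4 CPM at 0 h, and of 6.25, 15.1 and 47.3 CPM at 6 h. At 24 h the lowest, median and highest levels were 4.83, 7.55 and 12.7 CPM. They were 5.14, 6.77 and 13.9 CPM at 48 h, and 5.56, 6.82 and 14.99 CPM at 72 h. Each animal was lower than its own 0 h at these 3 time points, although animal 107 at all 3, and animal 206 at 48 and 72 h, stayed above the lowest animal of 0 h. The log2 fold changes of LIPE were -1.32, -1.28 and -1.19 (standard errors 0.19, 0.20 and 0.19), and the call at 24 h was lost with no blocking factor for animal.

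LPL (ENSBTAG00000012855) was counted in every sample at 1666 reads or more. Its lowest, median and highest levels were 168.1, 223.2 and 286.7 CPM at 0 h, and 109.5, 228.2 and 355.8 CPM at 6 h. They were 106.2, 190.1 and 223.7 CPM at 24 h, 75.7, 155.6 and 219.0 CPM at 48 h, and 84.3, 122.6 and 190.7 CPM at 72 h. All 7 animals were lower than at their own 0 h from 24 h onward, but the groups overlapped at every time point. For LPL the log2 fold changes were -0.39, -0.59 and -0.75 (standard errors 0.15, 0.16 and 0.16).

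GPAM (ENSBTAG00000011917) did not pass the thresholds at 24 h, with 65.01, 70.2 and 105.3 CPM at 0 h as lowest, median and highest levels, 40.1, 68.7 and 129.5 CPM at 6 h, and 51.4, 71.7 and 112.4 CPM at 24 h. At 48 h the levels were 12.7, 45.5 and 80.7 CPM and at 72 h 12.99, 24.5 and 93.7 CPM. Of the 7 animals, 6 were lower than at their own 0 h at 48 h and 6 at 72 h. The exceptions were animal 104 at 48 h and animal 202 at 72 h, at 124.2% and 137.2% of their own 0 h levels. For GPAM the log2 fold changes at 24, 48 and 72 h were -0.11, -0.92 and -1.39 (standard errors 0.31, 0.32 and 0.32). The calls of LPL and GPAM at 48 h were both lost without animal 101, without animal 107, and with no blocking factor for animal. That of LPL at 48 h was also lost without animal 103 and with DESeq2.

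**Figure D1:**
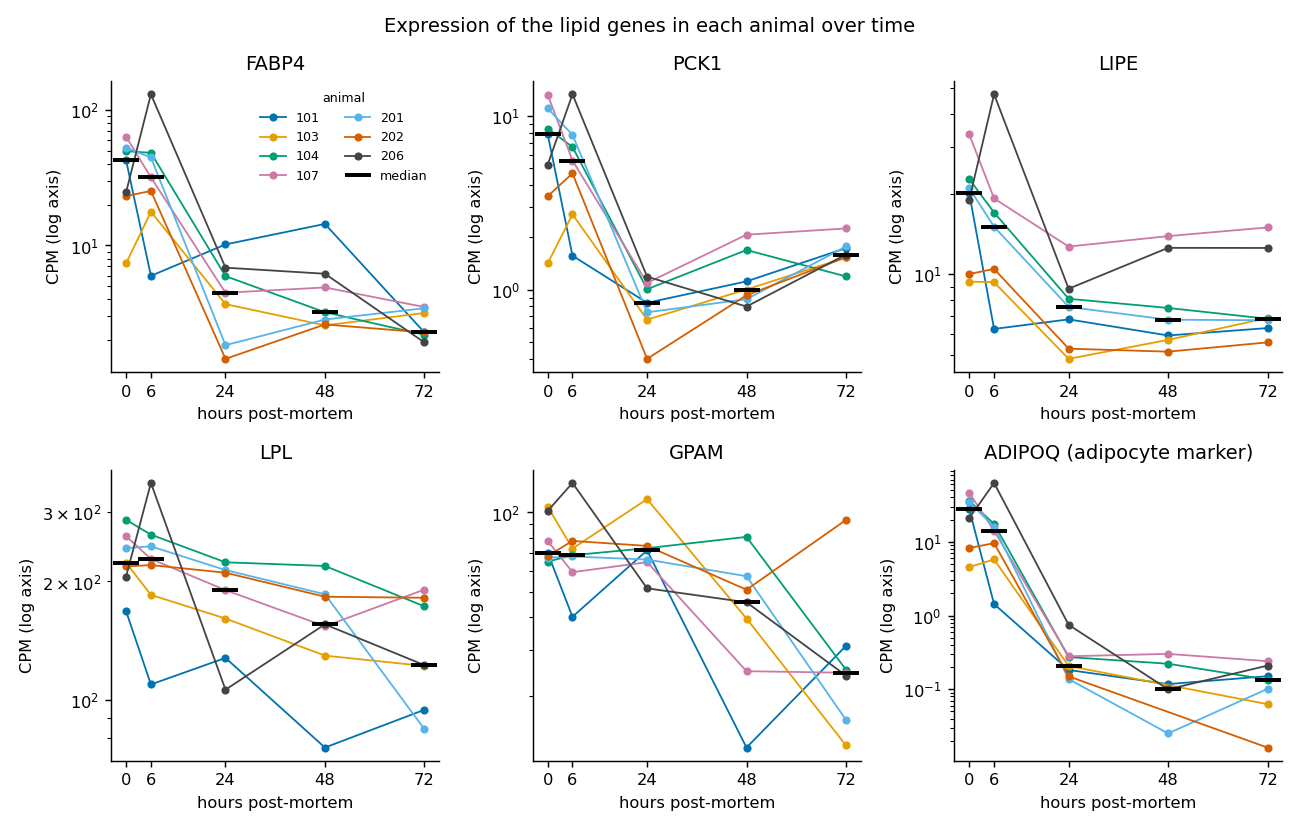
Expression in CPM (log axis) against hours *post-mortem* for the 5 genes and the adipocyte marker ADIPOQ, with 1 line per animal and a black bar at the median of the 7 animals. The medians of FABP4, PCK1, LIPE and ADIPOQ drop most between 6 and 24 h. LIPE, LPL and GPAM overlap their 0 h range at every time point. Of the time points from 24 h onward, FABP4 does so at 24 and 48 h and PCK1 at 48 and 72 h. ADIPOQ had no read in 2 animals at 48 h, which are left out of the lines.

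The levels that were left also set the genes apart. At 24 h the animals had kept a median of 11.97% of their own 0 h level of FABP4 (3.5 to 50.04%) and 11.6% of PCK1 (6.66 to 47.5%). They had kept 38.0% of LIPE (33.7 to 52.5%), 76.1% of LPL (51.6 to 96.4%) and 102.1% of GPAM (50.8 to 112.5%). For the adipocyte hormone gene ADIPOQ the median was 0.76% and the highest animal stood at 4.54%. All 5 members of a list of adipocyte markers (ADIPOQ, LEP, PLIN1, CIDEC and TRARG1) had an ID and were tested. Their summed level was 23.9 to 232.4 CPM at 0 h and 15.2 to 363.5 CPM at 6 h. At 24, 48 and 72 h it was 3.49 to 6.89, 2.99 to 5.47 and 3.63 to 5.87 CPM. LEP had no read in 2 libraries at each of 24, 48 and 72 h, and ADIPOQ in 2 at 48 h. None of the 5 genes studied here came to 0 in any sample.

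Markers of other cells could be followed only in part. Markers of any cell type, adipocytes included, had an ID only where the gene had been found differentially expressed at some time point. Their changes over time are therefore given as a description and are no evidence of what these cell types did. Of 5 macrophage markers, 4 had an ID, and their summed level was 19.3 to 69.5 CPM at 0 h and 23.7 to 50.7 CPM at 24 h, and then 10.6 to 34.8 and 5.40 to 25.5 CPM at 48 and 72 h. The fibroblast list had an ID for 1 of its 5 genes, PDGFRA, which ranged from 31.9 to 66.3 CPM at 0 h and from 13.7 to 33.7 CPM at 72 h. The summed level of the muscle genes CKM, TNNT1 and TNNT3, which were 3 of 8 listed, was 39140 to 55690 CPM at 72 h. None of the 6 endothelial markers had an ID. The part of these cells in the declines of FABP4, LPL and GPAM was not tested.

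At 6 h against 0 h, the comparison that played no part in choosing the genes, none of the 5 was called, and none had an unadjusted p below 0.05 (edgeR's quasi-likelihood test). DESeq2, limma and edgeR's likelihood ratio test called none either. Over all genes tested, 0.533% were called in either direction. The log2 fold change was 0.14 for FABP4 (standard error 0.43, FDR = 0.93), -0.25 for PCK1 (0.29, FDR = 0.76), -0.24 for LIPE (0.19, FDR = 0.62), -0.03 for LPL (0.16, FDR = 0.96) and -0.16 for GPAM (0.31, FDR = 0.88). A change of 1.5-fold lies within 2 standard errors of the estimates of FABP4, PCK1, LIPE and GPAM, and outside them for LPL. Single animals moved in opposite directions: between 0 and 6 h FABP4 went from 24.7 to 130.5 CPM in animal 206 and from 42.6 to 5.97 CPM in animal 101. Without animal 206 the log2 fold change of LIPE was -0.56 (FDR = 0.034), short of the fold change threshold, and that of PCK1 was -0.60 (FDR = 0.26). The comparison shares its 0 h samples with those by which the genes were chosen.

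The change from 6 to 24 h uses the 24 h samples and is also given as a description. FABP4, PCK1 and LIPE were called lower in this step, in which 0.54% of all genes were called lower. The log2 fold changes were -3.18 for FABP4 (standard error 0.48), -2.85 for PCK1 (0.34) and -1.08 for LIPE (0.20). They were -0.36 for LPL (0.16) and 0.05 for GPAM (0.31). PCK1 was lower at 24 h than at 6 h in 7 of 7 animals, and FABP4, LIPE and LPL in 6 of 7. The animal in which FABP4 and LIPE did not fall was 101, whose core of 6 h was already the lowest of its group in all 5 genes. When only the 14 samples of 6 and 24 h were fitted, PCK1 alone was called, and with no blocking factor for animal the call of LIPE was lost.

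**Figure D2:**
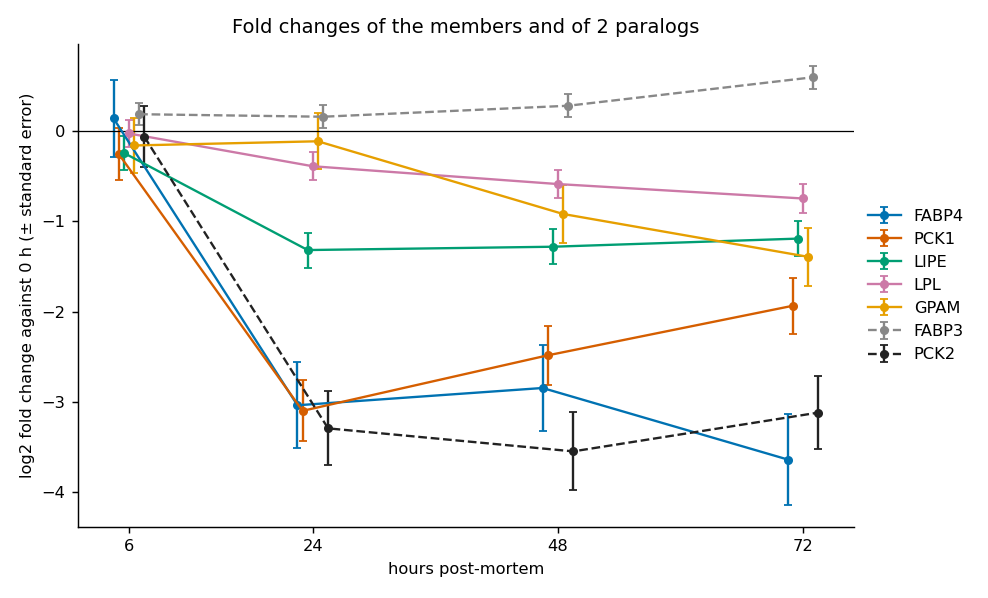
Log2 fold change against 0 h from the fitted model, with standard errors, for the 5 genes (solid lines) and for FABP3 and PCK2, the paralogs of FABP4 and PCK1 (dashed lines), at 6, 24, 48 and 72 h; points are offset sideways to keep them apart. FABP4, PCK1 and PCK2 lie below -2.8 at 24 h, LIPE near -1.3, LPL at -0.39 and GPAM at -0.11, while FABP3 stays above 0.

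Between later time points none of the 5 genes was called from 24 to 48 h, where 2.26% of all genes were called in either direction, or from 48 to 72 h, where 4.51% were (edgeR's quasi-likelihood test). At an unadjusted p below 0.05 there was 1 gene in the former step and 0 in the latter. For GPAM the difference from 24 to 48 h was -0.81 on the log2 scale (standard error 0.32, FDR = 0.071), and 6 of 7 animals were lower. It was called by edgeR's likelihood ratio test, by limma, in the fit of 14 samples and without animal 104, with FDR of 0.048, 0.039, 0.033 and 0.041, but not by DESeq2. From 48 to 72 h its log2 fold change was -0.48 (0.32, FDR = 0.27), and without animal 202 it was -0.86 (FDR = 0.035) and was called. PCK1 was higher in 6 of 7 animals in each step, by 0.62 (standard error 0.39, FDR = 0.27) and 0.55 (0.35, FDR = 0.24) on the log2 scale. LIPE had values of 0.04 (0.20, FDR = 0.92) and 0.09 (0.20, FDR = 0.76). FABP4 had log2 fold changes of 0.19 (0.49, FDR = 0.82) and -0.79 (0.52, FDR = 0.25), and LPL of -0.20 (0.16, FDR = 0.39) and -0.16 (0.16, FDR = 0.45).

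To set expression bound to adipocytes against expression shared with muscle, the spread between animals within a time point was used, which had no part in choosing the genes. An adipocyte score was taken as the mean log2 CPM of ADIPOQ, LEP, PLIN1, CIDEC and TRARG1. Its lowest, median and highest values were 1.897, 4.54 and 5.31 at 0 h and 1.06, 3.88 and 6.00 at 6 h, and it did not exceed -0.17 at 24 h. The lowest score was that of animal 103 at 0 h and of animal 101 at 6 h, so it is not always the same carcass that gave the core poorest in these markers. Animal 103 was at 0 h also the lowest in the macrophage markers CD163, MSR1, CSF1R and CD14 and in PDGFRA. Animal 101 was not the lowest in any of them at 6 h. Relations of the 5 genes with markers of other cells were not tested. Relations of the 5 genes with the score were computed over the 7 animals at each time point and for the difference between 6 and 0 h, 30 relations in all, with exact two-sided permutation tests over all pairings of the 7 animals and Benjamini-Hochberg adjustment over the 30. The smallest p these permutations can give is 0.0002. In each relation, both values come from the same libraries and share their normalization. The tests passed for 12 of the 30.

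FABP4 followed the score closely at 0 h (r = 0.98, exact p = 0.0002, adjusted p = 0.0015, Spearman's rho = 1.0, exact p = 0.0004, adjusted p = 0.0040) and at 6 h (r = 0.99, exact p = 0.0004, adjusted p = 0.0015, rho = 0.96, exact p = 0.0028, adjusted p = 0.010). Without the 2 animals farthest from the median score, r was 0.91 at 0 h and 0.94 at 6 h. The slope was 0.91 log2 units of FABP4 per unit of score at each of these time points. At 72 h, where FABP4 lay within 1.93 to 3.51 CPM, the relation did not pass (r = -0.018, exact p = 0.97, rho = 0.036, exact p = 0.96).

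PCK1 gave r = 0.99 at 0 h (exact p = 0.0002, adjusted p = 0.0015) and r = 0.98 at 6 h (exact p = 0.0002, adjusted p = 0.0015), with rho = 1.0 at each (exact p = 0.0004, adjusted p = 0.0040). Without the 2 animals farthest from the median, r was 0.94 and 0.98. Its slope was 0.95 at 0 h and 0.66 at 6 h. The relation also passed at 24 h (r = 0.83, exact p = 0.017, adjusted p = 0.043, rho = 0.82, exact p = 0.034, adjusted p = 0.085) and at 48 h (r = 0.83, exact p = 0.015, adjusted p = 0.041, rho = 0.68, exact p = 0.11, adjusted p = 0.21), where r was 0.77 and 0.73 without the 2 farthest animals. Those calls at 24 and 48 h were lost with ADIPOQ or PLIN1 alone as the score, with a prior count of 0.5, at 24 h without any single animal but 104, and at 48 h without any single animal but 202 or 206.

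LIPE gave r = 0.94 at 0 h (exact p = 0.0004, adjusted p = 0.0015, rho = 0.96, exact p = 0.0028, adjusted p = 0.010) and r = 0.96 at 6 h (exact p = 0.0016, adjusted p = 0.0053, rho = 0.86, exact p = 0.024, adjusted p = 0.071). Without the 2 farthest animals r was 0.94 and 0.88, and without animal 103 the adjusted p at 6 h was 0.052. Its slope was 0.54 at 0 h and 0.60 at 6 h, less than 1 unit of LIPE per unit of score.

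For LPL the relation passed at 6 h only. At 0 h r was 0.23 (exact p = 0.60, adjusted p = 0.65, rho = 0.54, exact p = 0.24) with a slope of 0.050. At 6 h it was 0.98 (exact p = 0.0004, adjusted p = 0.0015, rho = 0.96, exact p = 0.0028, adjusted p = 0.010) and 0.94 without the 2 farthest animals, with a slope of 0.34. At 24 h it was -0.66 (exact p = 0.10, adjusted p = 0.19). Whether the relation of LPL differed between 0 and 6 h was not tested.

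GPAM had r = -0.56 at 0 h (exact p = 0.16, adjusted p = 0.24, rho = -0.46, exact p = 0.30) and r = 0.89 at 6 h (exact p = 0.039, adjusted p = 0.091, rho = 0.43, exact p = 0.35). The value at 6 h rested on animals 101 and 206, the lowest and the highest, since r was -0.54 without them. No relation of GPAM passed at any time point.

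**Figure D3:**
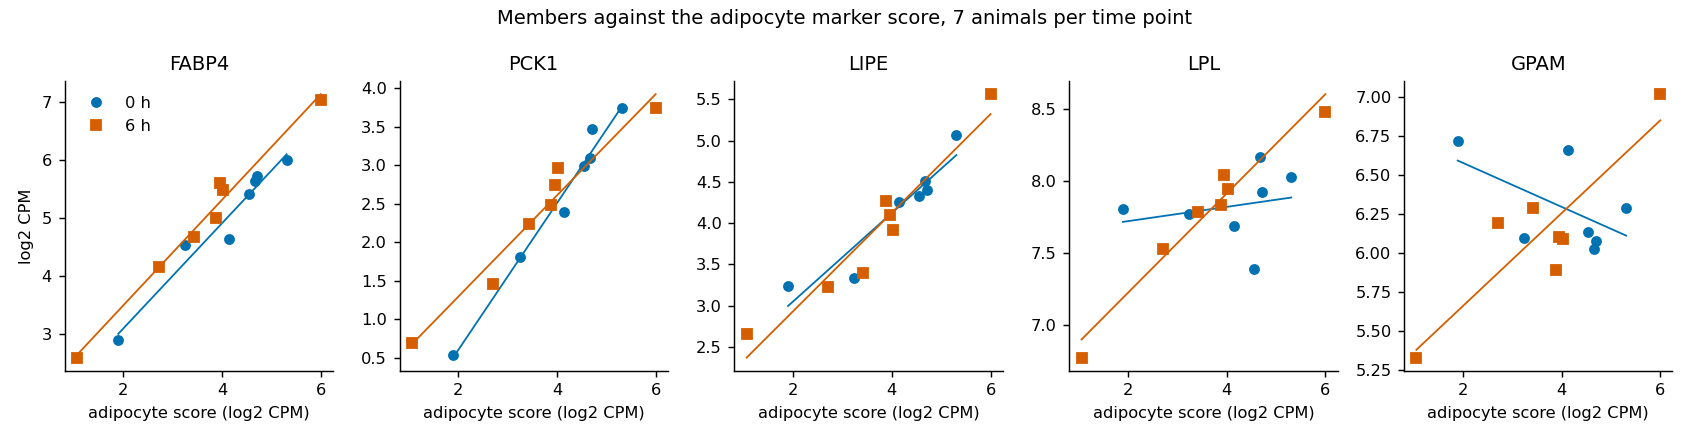
Log2 CPM of each gene against the adipocyte score (mean log2 CPM of 5 markers) at 0 h (blue circles) and 6 h (orange squares), with 1 point per animal and least-squares lines. The points of FABP4, PCK1 and LIPE follow the lines at both time points (r from 0.94 to 0.99), those of LPL at 6 h only, and those of GPAM at 6 h rest on the lowest and the highest animal.

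The difference between the cores of 6 and 0 h gave a like picture, though it is built from the same samples. Per animal, the score changed by -3.49 to 1.86 between the cores. The change of FABP4 followed it with r = 0.99 (exact p = 0.0004, adjusted p = 0.0015), that of PCK1 with r = 0.99 (exact p = 0.0004, adjusted p = 0.0015) and that of LIPE with r = 0.97 (exact p = 0.0024, adjusted p = 0.0071). Their rho was 0.96, 0.96 and 0.93 (exact p = 0.0028, 0.0028 and 0.0067). For these 3 genes r was 0.95, 0.99 and 0.94 without the 2 farthest animals. For LPL r was 0.81 (exact p = 0.046, adjusted p = 0.099) and for GPAM 0.69 (exact p = 0.079, adjusted p = 0.15), and these fell to -0.17 and -0.12 without the 2 farthest animals. When 1 animal was left out, r ranged from 0.69 to 0.96 for LPL and from 0.37 to 0.95 for GPAM. Both relations thus depended strongly on single animals.

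The differences between the genes in slope were tested as the relation of their log2 ratio to the score, for the 10 pairs of genes at 0 h, at 6 h and for the change between them, again 30 tests with adjustment over all of them. This test was added after the values were seen. It passed for 19 of the 30: 7 of 10 at 0 h, 5 of 10 at 6 h and 7 of 10 for the change between them. Leaving out 1 animal gave 16 to 20 in all. At 0 h the slope of FABP4 exceeded that of LPL by 0.86 (exact permutation p = 0.0022, adjusted p = 0.0065) and that of GPAM by 1.05 (exact permutation p = 0.0062, adjusted p = 0.012). PCK1 exceeded LPL and GPAM likewise, with slopes of 0.95 against 0.05 and -0.14 (exact permutation p = 0.0012 and 0.0002, adjusted p = 0.0040 and 0.0015). LIPE lay between them at 0 h. Its slope was 0.49 above that of LPL (exact permutation p = 0.0065, adjusted p = 0.012) and below that of PCK1 by 0.417 (exact permutation p = 0.023, adjusted p = 0.038), while the difference of 0.37 from FABP4 did not pass (exact permutation p = 0.072, adjusted p = 0.086). At 6 h the difference between the slopes of LIPE and LPL did not pass (0.60 against 0.34, exact permutation p = 0.072, adjusted p = 0.086). Nor did those of LIPE from FABP4, GPAM and PCK1 (adjusted p = 0.058, 0.063 and 0.63 in exact permutation tests). For the change between 0 and 6 h, LIPE differed from FABP4, GPAM and LPL (adjusted p = 0.011, 0.0084 and 0.0015) but not from PCK1 (0.086, exact permutation tests). The difference between GPAM and LPL passed neither at 0 h nor at 6 h (adjusted p = 0.28 and 0.62 in exact permutation tests). Between FABP4 and PCK1 the slopes differed by -0.046 at 0 h (adjusted p = 0.59, exact permutation test), and at 6 h that of FABP4 was 0.25 higher (exact permutation p = 0.025, adjusted p = 0.040).

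Gene symbols were at hand only for genes that had been found differentially expressed (DE) at some time point, and for that reason the other genes of these processes are described only in part. Of 51 genes listed for uptake and activation, lipolysis and glycerolipid synthesis, 19 had an ID, the 5 members among them. Of the other 14, none was called at 6 h (edgeR's quasi-likelihood test), although 2 had an unadjusted p below 0.05. These were LPIN2, a phosphatidate phosphatase (log2 fold change -0.42, standard error 0.11, FDR = 0.034), which was short of the fold change threshold, and the acylglycerol acyltransferase MOGAT1 (-0.58, standard error 0.26, FDR = 0.29). At 24 h 3 of the 14 were called lower, at 48 h 6, and at 72 h 12 were lower and 2 higher, beside 15.4% and 9.8% of all genes called lower and higher at 72 h. Since the 14 were named because they were DE, these counts are no evidence of a direction.

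The 3 called lower at 24 h were PLIN1, the coat protein of the adipocyte lipid droplet, the mitochondrial PCK2, and PDE3B, a phosphodiesterase that restrains lipolysis. Their log2 fold changes at 24 h were -3.77 (standard error 0.39), -3.29 (0.41) and -1.25 (0.24), and at 72 h -3.60, -3.12 and -1.39. PCK2 had 1.11, 5.82 and 11.2 CPM as lowest, median and highest levels at 0 h and 0.439, 0.616 and 0.685 CPM at 24 h, without overlap. At 72 h it still stood at a median of 9.76% of each animal's 0 h level, against 21.9% for PCK1.

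The other 9 genes called lower, from 48 or 72 h only, were 5 of the glycerolipid list and 4 of the uptake list. The acyl-CoA synthetase ACSL4 had log2 fold changes of -0.27, -0.78 and -1.02 at 24, 48 and 72 h (standard errors 0.094, 0.096 and 0.097). AGPAT5 and AGPAT3, acyltransferases of the step after GPAM, had log2 fold changes of -1.24 and -0.91 at 72 h, the phosphatases LPIN1 and LPIN2 of -1.18 and -0.67, and MOGAT1 of -2.28. In uptake, the lipoprotein receptor VLDLR, the synthetase ACSL1 and the transporter SLC27A6 had log2 fold changes of -0.78, -0.72 and -0.64 at 72 h. From 24 to 48 h MOGAT1 was called lower (log2 fold change -1.09, standard error 0.29, FDR = 0.012), and from 48 to 72 h AGPAT5 (-0.68, 0.15, FDR = 0.0018) and LPIN1 (-0.67, 0.26, FDR = 0.047).

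The 2 genes called higher at 72 h were FABP3 and PLIN5, which serves the lipid droplets of oxidative tissues such as muscle. Their fold changes, 1.513 and 1.507, lay just above the threshold of 1.5. FABP3 (ENSBTAG00000016819) had 90.9, 129.6 and 178.9 CPM as lowest, median and highest levels at 0 h and 130.4, 181.8 and 256.0 CPM at 72 h. It was higher than at 0 h in 7 of 7 animals at 24 h and at 72 h. Its log2 fold change was 0.16 at 24 h (standard error 0.12) and 0.60 at 72 h (0.13), against -3.04 and -3.64 for FABP4. That of PLIN5 at 72 h was 0.59 (0.13), against -3.60 for PLIN1.

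**Figure D4:**
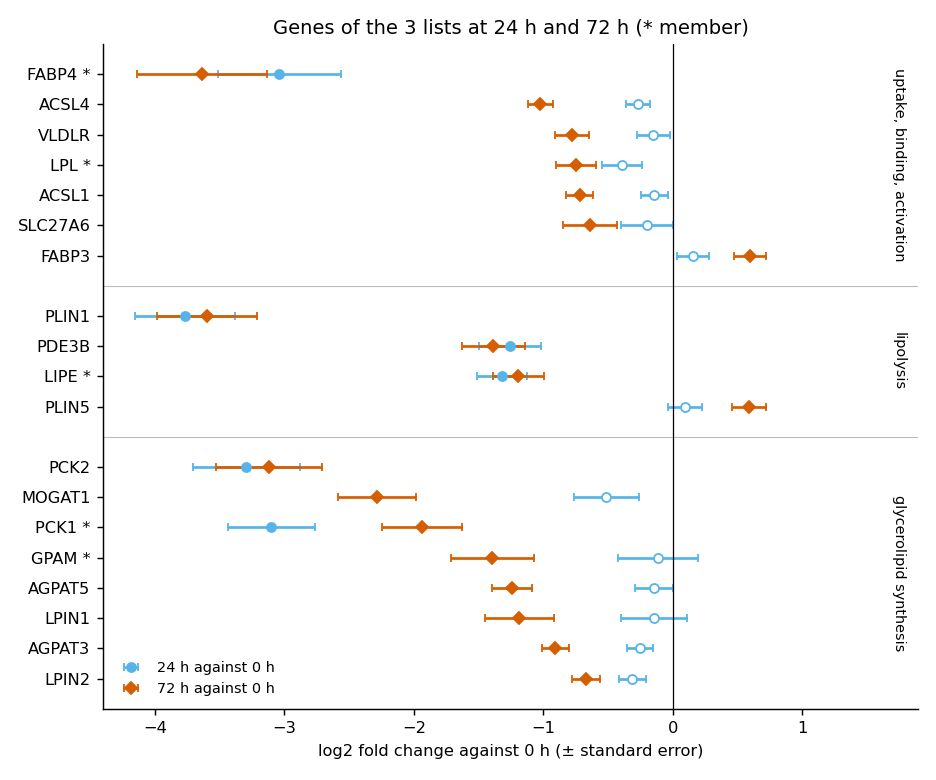
Log2 fold change against 0 h, with standard errors, of the 19 genes with an ID at 24 h (blue circles) and 72 h (orange diamonds), by list; filled symbols passed both thresholds (FDR and 1.5-fold), and stars mark the 5 members. Of the 19 genes, 6 were called at 24 h and all 19 at 72 h, with FABP3 and PLIN5 on the right of 0; PLIN1 is also one of the adipocyte markers.

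Over the 35 samples the log2 CPM of FABP4 and PCK1 correlated with r = 0.88, that of LIPE with PCK1 with r = 0.86 and with FABP4 with r = 0.80. GPAM and LPL correlated with r = 0.72, whereas GPAM reached 0.40 with FABP4, 0.30 with LIPE and 0.27 with PCK1. These values describe samples that share animals and time points. Among 2855 genes with a symbol and a mean of at least 1 CPM, those most like FABP4 were ACSM1 (r = 0.95), CIDEC (0.95) and MAL2 (0.94). Those most like PCK1 were PLIN1 (r = 0.94), MAL2 (0.94) and ATF5 (0.92), and those most like LIPE were ADCY6 (r = 0.93) and PDE3B (0.91). The genes nearest to LPL were HSD17B12 (r = 0.86), YARS2 (0.83) and LANCL1 (0.81), and to GPAM TMEM65 (r = 0.90), PFN2 (0.90) and KCNMA1 (0.88). No adipocyte marker was among the 3 genes nearest to LPL or to GPAM.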

How the data were processed

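RNA-Seq was performed on 35 muscle samples (7 animals, 5 time points). The authors trimmed reads with Trimmomatic, mapped them to ARS-UCD1.2 with STAR (2.7.0f) and counted them per Ensembl gene with featureCounts (1.6.4). The deposited values are raw read counts, unnormalized. The methods describe strand specific counting, but the options given include the unstranded setting. The totals of the counts used here, 20568418 to 104275821, match the range that the paper gives for reads assigned to the sense strand. The strand setting itself was not tested.

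From these counts, edgeR (4.0.16, R 4.3.3) was used with filterByExpr (minimum count 10), TMM normalization and the quasi-likelihood test, with animal as a blocking factor and Benjamini-Hochberg adjustment over 14630 genes. A call needed FDR under 0.05 and more than 1.5-fold difference. Standard errors are those implied by the test. CPM are TMM normalized, and log2 CPM used a prior count of 2. Alternatives used DESeq2 (1.42.0), limma (3.58.1), and other filters, normalizations and sample sets. The scripts were tested on simulated counts.

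The animal number pairs samples of 1 carcass: the median correlation of their deviations from the time point means was 0.58 (0.29 to 0.77, 70 pairs). Genes named were the 5 members, genes of the fixed lists that were called, FABP3 and PCK2, and the 3 genes most correlated with each member, of which 1 is not reported here. The members and lists were chosen with earlier results of these data known. Symbols came from the study's lists of differentially expressed genes. Gene lengths were not used here, so levels are not compared between genes. The authors' own fold changes and p-values were not used.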

Additional observations from a re-analysis of the deposited data

How the results depend on the processing

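The 5 genes were called alike under most alternatives. With no replicate block for animal, 3 of the 5 were called at 48 h against 0 h (LPL and GPAM were not), and 2 of 3 at 24 h (LIPE was not). Leaving out 1 animal gave 3 to 5 at 48 h against 0 h, 0 to 1 from 24 to 48 h and 0 to 1 from 48 to 72 h. From 6 to 24 h the fit of the 14 samples compared called 1. From 24 to 48 h edgeR's likelihood ratio test, limma voom and the fit of 14 samples called 1 each. LPL at 48 h was also not called with DESeq2 size factors, with at least 1 CPM in 7 samples, or by DESeq2. With no fold change threshold, 11 of the 14 other genes passed at 48 h instead of 6. At 72 h against 0 h, 12 to 14 of these 14 were called when 1 animal was left out. Since the 14 were named because they were DE, nothing is read from these counts. The share of all genes without the fold change threshold is not given here.

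At 6 h against 0 h the sign of FABP4 turned with limma voom (-0.068) and the fit of 14 samples (-0.013), and ranged from -0.31 to 0.36 without single animals. That of LPL was 0.001 with no replicate block and ranged from -0.20 to 0.069 without single animals. From 24 to 48 h FABP4 ranged from -0.063 to 0.35 and LIPE from -0.023 to 0.074. The relations with the adipocyte score that passed numbered 10 to 12 under every alternative. Signs turned only among relations that had not passed: FABP4 at 72 h (r = 0.017 with ADIPOQ alone, 0.12 with PLIN1 alone, -0.24 to 0.53 without single animals), GPAM at 48 h (0.098), LIPE at 72 h (-0.79), LPL at 24 h (0.085) and PCK1 at 72 h (-0.53), all with PLIN1 alone, and GPAM at 72 h (-0.76 to 0.28) and LPL at 48 h (-0.37 to 0.091) without single animals. The cause was not tested. The fewest counts, those of PCK1 (16 to 779), limit its later steps.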

Other observations

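The same relation was computed for the 13 other genes of the lists that are not in the adipocyte score, at 0 and 6 h, after the values above were seen (26 relations, exact two-sided permutation tests with adjustment over the 26). By Pearson's r, PDE3B and PCK2 passed at each time point, and the other 11 did not pass at either. By rank, PDE3B passed at each (adjusted p = 0.036, exact permutation test) and PCK2 at neither (adjusted p = 0.064 and 0.088). For PDE3B r was 0.98 at 0 h (exact p = 0.0004, adjusted p = 0.010, rho = 0.96, exact p = 0.0028) and 0.92 at 6 h (exact p = 0.0032, adjusted p = 0.021, rho = 0.96, exact p = 0.0028), with slopes of 0.62 and 0.52. For PCK2 r was 0.97 at 0 h (exact p = 0.0012, adjusted p = 0.015, rho = 0.89, exact p = 0.012) and 0.99 at 6 h (exact p = 0.0020, adjusted p = 0.017, rho = 0.86, exact p = 0.024), with slopes of 0.88 and 1.002. Without the 2 animals farthest from the median, r was 0.97 and 0.80 for PDE3B and 0.85 and 0.88 for PCK2. PDE3B and PCK2 are, beside PLIN1, the other genes of the lists that were called lower at 24 h.

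FABP3 had r = -0.10 at 0 h (exact p = 0.81) and -0.022 at 6 h (exact p = 0.97), and PLIN5 had r = -0.29 (exact p = 0.54) and -0.005 (exact p = 0.98). LPIN2 had r = 0.78 at 0 h (exact p = 0.035, adjusted p = 0.10) and 0.80 at 6 h (exact p = 0.012, adjusted p = 0.060), with slopes of 0.19 and 0.20.

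The globin genes HBB and HBA summed to 0.126 to 72.2 CPM at 48 h, against 0.052 to 3.59 CPM at 0 h. The medians of the sum were 5.02 CPM at 48 h and 0.217 CPM at 0 h. Animal 101 was the highest at 48 h in both genes (58.0 CPM of HBB and 14.1 CPM of HBA). At 72 h the sum was 0.152 to 5.90 CPM.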
